A study of Drosophila melanogaster with 58 samples.

Results

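The genes described here are the Notch ligand, the Notch receptor and 8 Notch-responsive genes of the Enhancer of split complex, E(spl), in Drosophila melanogaster embryos that overexpressed gcm or lacked it. The list held 10 genes: E(spl)mdelta-HLH, E(spl)malpha-BFM, E(spl)mbeta-HLH, E(spl)mgamma-HLH, E(spl)m3-HLH, E(spl)m5-HLH, E(spl)m7-HLH, E(spl)m8-HLH, Dl and N. Members were taken as the probes whose gene symbol in the array's annotation was one of these names or an older name for the same gene. By that rule 7 of the 10 genes were found, with 1 probe each. The array held 23808 probes, of which 13455 were named for 1 gene, and these stood for 11663 genes. E(spl)mgamma-HLH, E(spl)m8-HLH and N were not analysed here. All 7 measured genes lie on chromosome arm 3R, and all 7 passed the filter on missing values in every comparison.

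The gain-of-function embryos came from the cross of the Gal4 driver line MZ1060 to the UAS-gcm stock B5446, which expresses gcm ectopically, and their reference was an equal mixture of mRNA from the 2 parental lines at the same stage. The 33 arrays of this experiment covered stages 9 to 16, 4 per stage except for 5 at stage 14. The loss-of-function embryos were gcmN7-4 homozygotes picked by an embryo sorter for lack of GFP, and their reference was OregonR embryos handled in the same way. Its 25 arrays covered stages 10, 11, 12, 13, 14 and 16, 4 per stage except for 5 at stage 10. The balancer carried Kr-GFP in collections of stages 10 to 13 but Ubi-GFP in those of stages 14 to 16, so the sorting marker changed inside the later stages. The cells in which MZ1060 drives expression are not given in the sources used here. Labels call the hybridizations independent experiments but do not name separate collections, so p-values measure the spread between arrays, which may be partly technical.

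In Notch signalling, the transmembrane ligand Delta, encoded by Dl, activates the receptor Notch on a neighbouring cell. The receptor is cleaved, and its intracellular part enters the nucleus, where it turns the DNA-binding protein Suppressor of Hairless into an activator of the E(spl) genes. Most E(spl) genes encode basic helix-loop-helix (bHLH) repressors that act with the corepressor Groucho on proneural genes. Others encode small Bearded-family proteins, which bind the ubiquitin ligase Neuralized and limit its action on Delta. In the embryonic neuroectoderm this circuit sets apart neuroblasts from epidermal cells, and in later lineages it separates sister cell fates. The transcription factor glial cells missing, encoded by gcm, directs glial fate in many of these lineages and also acts in blood cells.

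Every value is a log2 ratio of perturbed over wild-type embryos on 1 array, so that 0 means no difference and -1 a fall by a factor of 2. A ratio array gives no absolute level, and levels were not compared between genes. RNA came from whole embryos, so fewer cells of a type and less RNA per cell cannot be told apart. Probe sequences were not used here, and cross-hybridization between the similar E(spl) genes, or between the similar Bearded-family genes, was not tested. Differences were called when the adjusted p of the limma model was under 0.05, with Benjamini-Hochberg adjustment over all probes tested in that comparison.

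The arrays measured 11991 to 23103 probes in the gain-of-function experiment and 10822 to 23253 in the loss-of-function experiment. Over 40% of the probes were missing on replicate 1 of stage 9 and replicate 2 of stage 14 with ectopic gcm, and on replicate 4 of stage 11 in the mutants. The targeted gene was higher with ectopic expression (gcm log2 1.35 ± 0.10 SE, above 0 on 31 of 33 arrays) and lower in the mutants (-0.95 ± 0.12, below 0 on 23 of 25 arrays). With ectopic expression gcm was not called at stage 9 (0.13 ± 0.29, adjusted p = 0.876) or 10 (0.92 ± 0.29, adjusted p = 0.0548). In the mutants it was not called at stage 12 (-0.295 ± 0.29, adjusted p = 0.66) or 13 (-0.63 ± 0.29, adjusted p = 0.181). A list of maternal RNAs had a mean above 0 on every array, from 0.14 to 1.41 in the gain of function (median 0.81) and from 0.08 to 1.50 in the loss of function (median 0.76). Its mean was also fitted as a covariate, entered as it stood. Averages and stage values under it thus stand for a maternal mean of 0, below that of every array, and are extrapolated. Of 11 measured neuroblast genes, 9 were lower with ectopic gcm (median -0.60, range -0.91 to -0.24), and 1 was higher and 2 lower in the mutants (median 0.09, range -0.82 to 0.40). Of 10 blood cell genes, 8 were lower with ectopic gcm (median -0.52) and 7 in the mutants (median -0.90), and 0 were higher in either. Of the glial genes, 3 of 8 were higher and 3 lower with ectopic gcm (median 0.04), and 0 of 9 were higher and 7 lower in the mutants (median -0.49). Of the neuronal genes, 3 of 6 were lower with ectopic gcm (median -0.40) and 2 of 5 in the mutants (median -0.10). Of 4 muscle genes, 1 was lower with ectopic gcm (median -0.14) and 1 higher in the mutants (median 0.15). Over all probes 13.6% were lower and 14.1% higher with ectopic gcm, and 13.8% lower and 13.9% higher in the mutants. The part of these cell types in the results was not tested.

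Several E(spl) genes were lower in embryos with ectopic gcm. Averaged over stages 9 to 16, E(spl)mdelta-HLH, E(spl)malpha-BFM, E(spl)m7-HLH and E(spl)m5-HLH fell, E(spl)mbeta-HLH and E(spl)m3-HLH did not pass the test, and no member rose. The falls lay between 1.36-fold and 1.64-fold. Of the 7 members 4 were called lower and 0 higher, beside 13.6% of all 14780 tested probes lower and 14.1% higher. At an unadjusted p under 0.05 the counts were 5 lower and 0 higher, beside 18.3% and 17.2% of all probes. The median of the members was -0.44, against -0.01 over all probes.

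E(spl)mdelta-HLH, a bHLH repressor gene, had the lowest average of the 7 members. With ectopic gcm its ratios were -1.94, -1.35, -0.73 and -0.77 at stage 9, and -1.31, -1.07, -0.47 and -0.64 at stage 10. They were -0.58, -1.04, -0.68 and -0.70 at stage 11, and -0.74, -0.70, -0.83 and -0.41 at stage 12. All 16 arrays of stages 9 to 12 thus lay below 0. The ratios spread more widely at stage 13 (-0.97, 0.13, -0.09 and 0.47) and at stage 14 (-0.84, -2.55, -0.60, -1.29 and 0.02). At stage 15 they were -0.51, 0.56, -0.06 and -0.50, and at stage 16 they were -0.65, -1.62, -0.50 and -1.57. In these later stages 13 of 17 arrays were below 0. The average was -0.72 ± 0.10 (SE, n = 33 arrays, lower on 29, adjusted p = 5.71e-08), a fall of 1.64-fold.

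E(spl)malpha-BFM, which encodes a Bearded-family protein, was below 0 on 32 of 33 gain-of-function arrays. Its ratios were -2.09, -1.13, -0.65 and -0.32 at stage 9, -1.36, -0.95, -0.30 and -0.49 at stage 10, and -0.94, -0.80, -0.71 and -0.64 at stage 12. At stages 13 to 16 they ran from -1.50 to 0.29, with a median of -0.37, and the single array above 0 was replicate 2 of stage 15. The average was -0.63 ± 0.10 (SE, n = 33, adjusted p = 2.78e-06), a fall of 1.55-fold.

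The bHLH repressor genes E(spl)m7-HLH and E(spl)m5-HLH fell as well, with more scatter at late stages. E(spl)m7-HLH was lower on 32 of 33 arrays and averaged -0.56 ± 0.17 (SE, adjusted p = 0.0103). Its one positive array, replicate 2 of stage 15, read 5.16 from a single spot, against -0.41 to -0.25 on the other 3. With values of 5 or more in size left out, the average was -0.72 (adjusted p = 6.17e-06). E(spl)m5-HLH was lower on 26 of 33 arrays and averaged -0.44 ± 0.15 (adjusted p = 0.0275). It lay between -2.01 and -0.07 on the 16 early arrays, all below 0, while its late arrays ran from -3.11 at stage 13 to 3.63 at stage 14, both single-spot readings. These 4 genes were below 0 together on 16 of 16 arrays of stages 9 to 12 and on 9 of 17 arrays of stages 13 to 16.

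E(spl)mbeta-HLH and E(spl)m3-HLH, also bHLH repressor genes, stood apart from these 4. E(spl)m3-HLH stayed near 0, between -0.70 and 0.38 over the 33 arrays, and averaged -0.09 ± 0.07 (95% interval -0.23 to 0.04, adjusted p = 0.37). E(spl)mbeta-HLH averaged -0.15 ± 0.13 (95% interval -0.41 to 0.12, adjusted p = 0.481), with a single-spot reading of 3.44 at stage 11. Leaving out 1 array at a time gave -0.27 to -0.08 for it, with a lowest adjusted p of 0.0685. The ligand gene Dl was lower on 24 of 33 arrays but missed the threshold, at -0.24 ± 0.10 (95% interval -0.44 to -0.04, adjusted p = 0.0626).

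With the maternal mean as a covariate the average of E(spl)mdelta-HLH was -1.27 (adjusted p = 0.00163) and that of E(spl)malpha-BFM -0.89 (adjusted p = 0.0349), while the calls of E(spl)m7-HLH (-0.98, adjusted p = 0.205) and E(spl)m5-HLH (0.06, adjusted p = 0.963) ended. Under it Dl was at -0.71 (adjusted p = 0.0792), E(spl)mbeta-HLH at -0.10 and E(spl)m3-HLH at 0.12, none of which passed. These averages are extrapolated to a maternal mean of 0. The standard error of E(spl)m5-HLH was 0.38 under the covariate, against 0.15 without it. On arrays that were not centred, 1379 of all probes were called higher and 475 lower, and the calls of E(spl)m7-HLH (-0.53) and E(spl)m5-HLH (-0.40) were lost. Both calls were lost with stage 9 left out (-0.50 for E(spl)m7-HLH and -0.36 for E(spl)m5-HLH), and that of E(spl)m5-HLH with the gain-of-function arrays fitted alone (adjusted p = 0.0754) or with arrays scaled to one spread (-0.39, adjusted p = 0.0989). It was also lost without replicate 2 of stage 13 (-0.36), replicate 4 of stage 14 (-0.39) or replicate 3 of stage 16 (-0.39). Dl passed with arrays scaled to one spread (adjusted p = 0.0389), with print blocks centred (0.0398) and among probes measured on every array (0.0359). It also passed without any 1 of 5 arrays, namely replicate 4 of stage 9 (-0.29), replicates 2 and 4 of stage 13 (-0.29 and -0.26), replicate 5 of stage 14 (-0.29) and replicate 1 of stage 16 (-0.26).

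**Figure D1:**
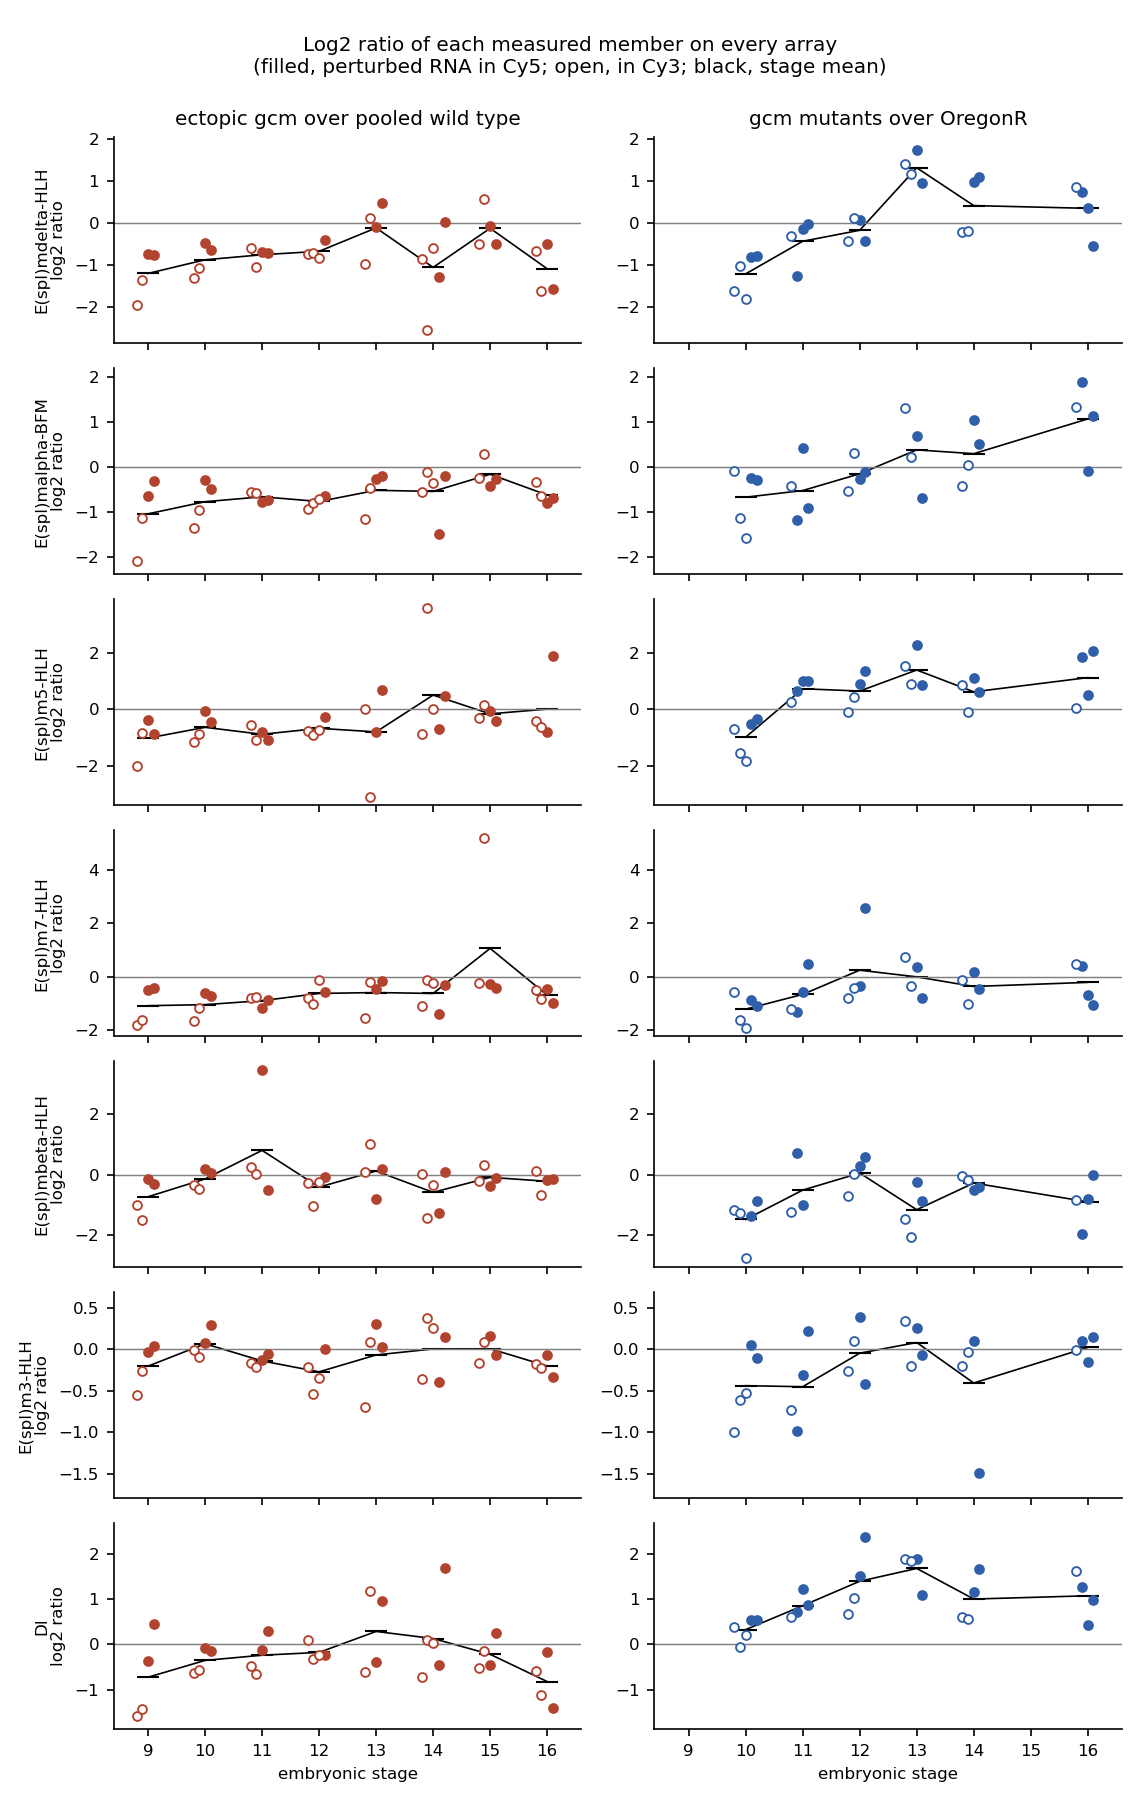
Log2 ratio of each of the 7 measured members on every array, against embryonic stage, with ectopic gcm over pooled wild type on the left and gcm mutants over OregonR on the right; points are arrays, filled where the perturbed RNA was in Cy5 and open where it was in Cy3, black lines join stage means, and the vertical axis differs between rows. E(spl)mdelta-HLH, E(spl)malpha-BFM, E(spl)m5-HLH and E(spl)m7-HLH lie below 0 on all 16 early arrays at the left, and Dl lies above 0 on 24 of 25 arrays at the right.

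The early falls were seen in both dye orientations. Over stages 9 to 12, E(spl)mdelta-HLH averaged -0.63 ± 0.14 (SD, n = 7) where the perturbed RNA was in Cy5 and -1.06 ± 0.42 (n = 9) where it was in Cy3. E(spl)malpha-BFM averaged -0.56 ± 0.20 and -1.01 ± 0.48 in the same sets, E(spl)m7-HLH -0.69 ± 0.26 and -1.08 ± 0.55, and E(spl)m5-HLH -0.56 ± 0.37 and -0.997 ± 0.42. Dl differed between the orientations, at -0.02 ± 0.29 in Cy5 and -0.64 ± 0.54 in Cy3.

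Single stages carried fewer calls. With ectopic gcm, E(spl)mdelta-HLH (-1.20 ± 0.27 SE, adjusted p = 0.0028) and E(spl)malpha-BFM (-1.05 ± 0.29, adjusted p = 0.015) were lower at stage 9, and E(spl)mdelta-HLH was lower at stage 14 (-1.01 ± 0.25, adjusted p = 0.0184). Without replicate 1 of stage 9 both stage 9 calls were lost (-1.01 and -0.71), and that of E(spl)malpha-BFM was also lost without replicate 2 (-1.04). Both stage 9 calls were also lost without centring (adjusted p = 0.0918 and 0.149). The stage 14 call was lost without centring (adjusted p = 0.177), without replicate 2 (-0.68) or replicate 4 (-0.88), and with values of 5 or more in size left out (-0.38, adjusted p = 0.576). No member was called at stages 10, 11, 12, 13, 15 or 16, where 3, 2, 2, 0, 0 and 3 members were lower at an unadjusted p under 0.05, and 0, 1, 0, 0, 1 and 0 higher. Over all probes at these stages, 2.80% to 6.57% were lower and 3.28% to 7.88% higher at that threshold. In several alternatives E(spl)mdelta-HLH passed at stage 10, as with print blocks centred (-0.91) or values of 5 or more in size left out (-0.87). It passed at both stages 10 and 16 with arrays scaled to one spread (-0.97 and -1.38) and with the maternal covariate (-1.47 and -1.65). The same held on probes measured on every array and without arrays that lacked over 40% of probes. With only repeat spots of an SD under 0.333 kept, E(spl)mdelta-HLH, E(spl)m5-HLH and E(spl)m7-HLH passed at each of stages 10, 11 and 12. E(spl)malpha-BFM passed at stages 10 and 12 under that filter (adjusted p = 0.00885 and 0.0396) and with arrays scaled to one spread (0.0251 and 0.0344). The stage 14 call of E(spl)mdelta-HLH was lost under the filter (-0.44, adjusted p = 0.161). Of all tested probes, the shares called in either direction were 9.37% at stage 9, 4.35% at stage 10, 2.90% at stage 11, 2.06% at stage 12, 3.15% at stage 13, 1.58% at stage 14, 0.481% at stage 15 and 0.222% at stage 16.

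A comparison of late with early stages asked whether the ratios moved during development. With ectopic gcm, 0 of the 7 members were called in either direction by the limma model, beside 0.298% of all probes higher and 1.06% lower at late stages. At an unadjusted p under 0.05, E(spl)m7-HLH (0.70 ± 0.34 SE) and E(spl)m5-HLH (0.68 ± 0.31) were less negative late, and 0 members were more negative, beside 5.55% of all probes higher and 6.85% lower. Their late arrays hold single-spot readings of 5.16 for E(spl)m7-HLH and of -3.11, 3.63 and 1.92 for E(spl)m5-HLH. Leaving out 1 array at a time gave 0.34 to 0.83 for E(spl)m7-HLH and 0.47 to 0.87 for E(spl)m5-HLH.

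In gcm mutants the ligand gene moved the other way. Dl was higher on 24 of 25 arrays and averaged 1.04 ± 0.11 (SE, adjusted p = 9e-10), a rise of 2.05-fold. Its ratios were 0.38, -0.05, 0.21, 0.55 and 0.54 at stage 10, and 0.60, 0.72, 1.23 and 0.88 at stage 11. They were 0.68, 1.02, 1.50 and 2.37 at stage 12, and 1.89, 1.84, 1.90 and 1.09 at stage 13. The only value below 0 was thus at stage 10, and the stage mean was highest at stage 13. The ratios were 0.60, 0.57, 1.17 and 1.68 at stage 14 and 1.63, 1.27, 0.42 and 0.98 at stage 16, all above 0. Dl passed the test at stages 12 (1.40 ± 0.28, adjusted p = 0.00115), 13 (1.68 ± 0.28, adjusted p = 4.88e-05), 14 (1.00 ± 0.28, adjusted p = 0.042) and 16 (1.00 ± 0.29, adjusted p = 0.0378). At stages 10 and 11 it did not (0.36 ± 0.25 and 0.78 ± 0.29, adjusted p = 0.615 and 0.0865).

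The rise of Dl held without the stage at which it was highest, with an average of 0.90 without stage 13 and of 1.17 without stage 10. These alternatives were chosen after the data were seen. With the maternal mean as a covariate the average was 0.59 and no longer passed (adjusted p = 0.104). The calls of Dl at stages 12 and 13 were kept whichever of their arrays was left out, but the covariate ended both (0.95, adjusted p = 0.15, and 0.99, adjusted p = 0.312). It also ended those of stages 14 and 16 (0.63 and 0.79), and without centring those of stages 12, 14 and 16 were lost (adjusted p = 0.144, 0.0856 and 0.107). At stage 14 Dl no longer passed without replicate 1, 2, 3 or 4 (1.09, 1.10, 1.00 and 0.82). At stage 16 it no longer passed without replicate 1, 2 or 4 (0.66, 0.96 and 1.06). At stage 13 the maternal list had its largest number of calls in the mutants, 8 of 16 measured genes higher, with a median of 1.27.

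Of the E(spl) genes, E(spl)m5-HLH was higher and E(spl)mbeta-HLH and E(spl)m3-HLH were lower on average in the mutants. With Dl this made 2 of 7 members higher and 2 lower, beside 13.9% of all 15025 tested probes higher and 13.8% lower. The median of the members was 0.03, against 0.00 over all probes. E(spl)m5-HLH averaged 0.55 ± 0.18 (SE, higher on 18 of 25 arrays, adjusted p = 0.0177). The gene differed between the dye orientations, with a mean of 0.96 where the mutant RNA was in Cy5 (above 0 on 12 of 14 arrays). Where the mutant RNA was in Cy3 the mean was -0.01 (above 0 on 6 of 11 arrays). Its ratios were -0.69, -1.57, -1.82, -0.52 and -0.34 at stage 10, all below 0, and 1.57, 0.90, 2.30 and 0.87 at stage 13, all above 0. The rise at stage 13 was called (1.41 ± 0.44, adjusted p = 0.0328), and that call was lost without replicate 1, 2 or 3 (1.21, 1.45 and 1.23).

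E(spl)mbeta-HLH was the most reduced member in the mutants, at -0.74 ± 0.16 (SE, n = 24 arrays, lower on 20, adjusted p = 0.000223). Its ratios were -1.17, -1.27, -2.75, -1.35 and -0.87 at stage 10, and -1.46, -2.07, -0.24 and -0.88 at stage 13. All 9 of these arrays lay below 0, and both stages were called (-1.43 ± 0.34, adjusted p = 0.00442, and -1.16 ± 0.38, adjusted p = 0.0399). Leaving out replicate 3 ended the call at stage 10 (-1.16). Leaving out replicate 1, 2 or 4 ended that at stage 13 (-1.15, -0.93 and -1.16). At stage 12 the ratios were -0.71, 0.03, 0.29 and 0.59, on both sides of 0. At stage 16 they were -0.85, -1.96, -0.80 and -0.00, and the fitted value of -1.04 missed the threshold (adjusted p = 0.142).

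E(spl)m3-HLH averaged -0.21 ± 0.08 in the mutants (SE, lower on 16 of 25 arrays, adjusted p = 0.0364). This small difference lost its call without any 1 of 10 arrays: replicate 1 or 2 of stage 10 (-0.19 and -0.21), replicate 1 or 2 of stage 11 (-0.20 and -0.18), replicate 1 or 4 of stage 12 (-0.20 and -0.19), replicate 2 or 4 of stage 13 (-0.20 and -0.20), replicate 4 of stage 14 (-0.15) and replicate 3 of stage 16 (-0.20). E(spl)m7-HLH averaged -0.39 ± 0.20 (95% interval -0.79 to 0.01, adjusted p = 0.154). Its replicate 4 of stage 12 read 2.56, against -0.80 to -0.35 on the other 3 arrays, and without that array the average was -0.50 and passed (adjusted p = 0.045). It also passed with values of 5 or more in size left out (-0.38, adjusted p = 0.0299). Keeping only repeat spots with an SD under 0.333 gave -0.51 (adjusted p = 2.08e-05). The dye orientation of replicate 4 of stage 12 was kept as labelled but is in doubt, since gcm read 0.74 on that array. Of its 3 correlations with the other arrays of its stage, 1 was -0.14, the lowest of all pairs of arrays of a stage. Dl read 2.37 on it, and without it the stage 12 value of Dl was 1.10 (adjusted p = 0.0321) and its average 0.99.

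With the maternal mean as a covariate, E(spl)m5-HLH was at 1.02 (adjusted p = 0.0794), E(spl)mbeta-HLH at -0.69 (adjusted p = 0.206) and E(spl)m3-HLH at -0.01 (adjusted p = 0.977), so that none of these 3 passed. Under it E(spl)m7-HLH was at -0.79 (adjusted p = 0.268), E(spl)mdelta-HLH at -0.50 (adjusted p = 0.152) and E(spl)malpha-BFM at -0.19 (adjusted p = 0.719). On arrays scaled to one spread E(spl)m5-HLH (0.44, adjusted p = 0.129) and E(spl)m3-HLH (-0.18, adjusted p = 0.0511) did not pass. Without stage 13, E(spl)m5-HLH averaged 0.37 and did not pass (adjusted p = 0.205), and without stage 10 it averaged 0.84. On arrays not centred, 1634 probes were called higher and 471 lower, the median of all probes moved to 0.16, and E(spl)m3-HLH no longer passed (-0.06).

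E(spl)mdelta-HLH and E(spl)malpha-BFM had averages near 0 in the mutants (0.03 ± 0.11 and 0.06 ± 0.12 SE) but low early and high late ratios, and their late minus early differences were called. E(spl)mdelta-HLH read -1.62, -1.02, -1.80, -0.80 and -0.78 at stage 10, and -0.31, -1.26, -0.14 and -0.02 at stage 11. It read 1.41, 1.15, 1.74 and 0.95 at stage 13. At stage 14 the ratios were -0.20, -0.19, 0.97 and 1.08, and at stage 16 they were 0.84, 0.74, 0.36 and -0.54, on both sides of 0. The late minus early difference was 1.29 ± 0.22 (SE, 95% interval 0.84 to 1.73, adjusted p = 0.000117). The fall at stage 10 (-1.18 ± 0.25, adjusted p = 0.000962) and the rise at stage 13 (1.31 ± 0.27, adjusted p = 0.00083) were each called. The first was lost without centring (-1.28, adjusted p = 0.073), and the second with the maternal mean as a covariate (0.49, adjusted p = 0.671).

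E(spl)malpha-BFM read -0.09, -1.14, -1.59, -0.26 and -0.30 at stage 10, all below 0. It read 1.31, 0.22, 0.69 and -0.70 at stage 13 and 1.35, 1.90, -0.10 and 1.14 at stage 16, each with 1 array below 0. Its late minus early difference was 1.03 ± 0.23 (SE, 95% interval 0.56 to 1.50, adjusted p = 0.00374), and the rise at stage 16 was called (1.05 ± 0.30, adjusted p = 0.0348). That stage call was lost without replicate 1, 2 or 4 (0.90, 0.79 and 1.03).

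Of the 7 members 2 were called higher late and 0 lower, beside 3.96% of all probes higher and 1.60% lower. At an unadjusted p under 0.05 the counts were 3 and 0, beside 12.4% and 6.41% of all probes. E(spl)m5-HLH had a difference of 0.90 ± 0.36 that missed the threshold (adjusted p = 0.139). It passed without centring (1.48, adjusted p = 0.023) and with each experiment fitted alone (adjusted p = 0.0483). The difference of E(spl)m7-HLH (0.34, adjusted p = 0.719) passed with only repeat spots of an SD under 0.333 kept (0.78, adjusted p = 0.00382). Without centring the median of all probes in this comparison was 0.64, with 2628 probes higher and 26 lower, and E(spl)mdelta-HLH stood at 1.87 and E(spl)malpha-BFM at 1.61. With stage 13 left out E(spl)mdelta-HLH stood at 0.96 and E(spl)malpha-BFM at 1.11, and with stage 10 left out at 1.00 and 0.92, called in each case. The call of E(spl)malpha-BFM was lost when the loss-of-function arrays were fitted alone (adjusted p = 0.0745). The balancer changed after stage 13, and its part in the difference was not tested.

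At stage 10 of the mutants, 6 of 7 members were lower at an unadjusted p under 0.05, of which E(spl)mdelta-HLH and E(spl)mbeta-HLH were called, and Dl was the exception. At that threshold 6.93% of all probes were lower. Of the marker lists, 7 of 10 blood cell genes (median -1.23), 5 of 11 neuroblast genes (median -0.78) and 4 of 9 glial genes (median -0.54) were called lower at stage 10, and 6 of 17 maternal RNAs higher (median 0.72). At stage 13, Dl, E(spl)mdelta-HLH and E(spl)m5-HLH were called higher and E(spl)mbeta-HLH lower. At stage 11 the limma model called 0 members, with 1 lower and 1 higher at an unadjusted p under 0.05, beside 12.2% and 8.10% of all probes. Of all tested probes, the shares called in either direction in the mutants were 5.41% at stage 10, 8.67% at stage 11, 7.32% at stage 12, 9.60% at stage 13, 2.55% at stage 14 and 3.58% at stage 16. Over both experiments 13 of 98 pairs of member and stage were called. Of these calls 4 were kept whichever array of the stage was left out, namely E(spl)mdelta-HLH at stages 10 and 13 and Dl at stages 12 and 13 of the mutants. None of the 13 was kept under every alternative setting tried (0 of 13), the maternal covariate and the absence of centring being those that ended these 4.

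**Figure D2:**
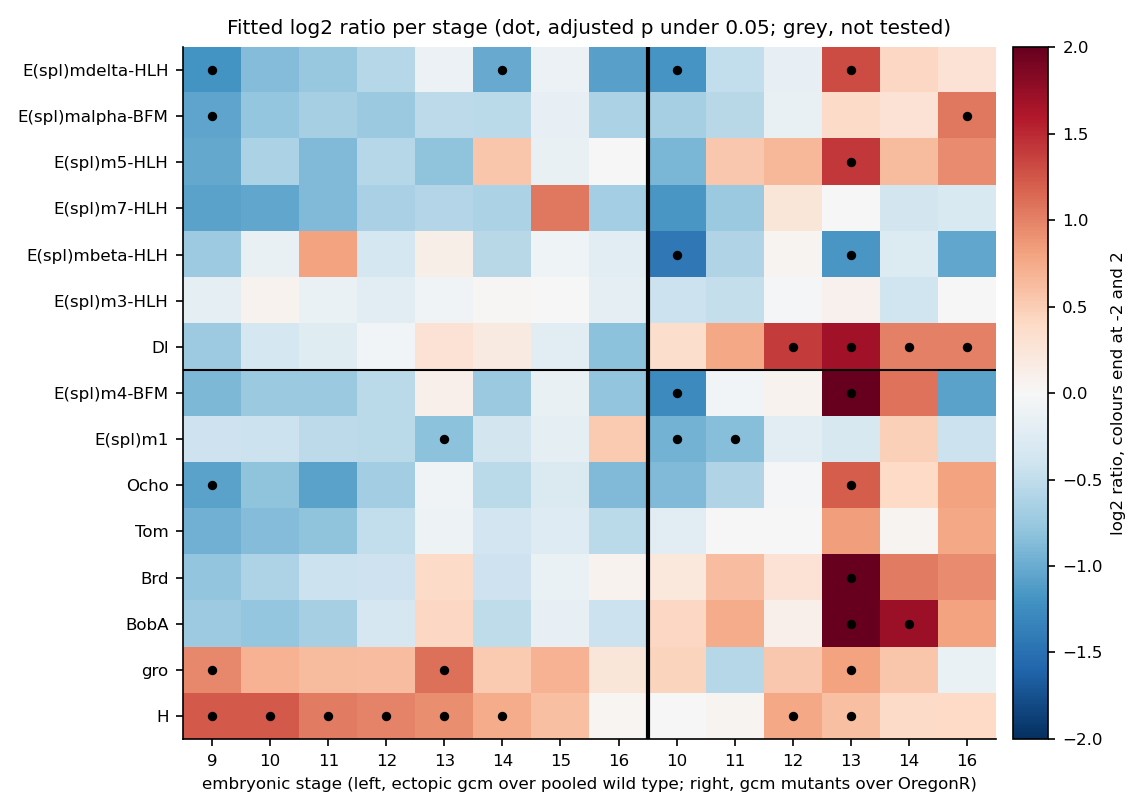
Fitted log2 ratio per stage for the 7 members (above the line) and 8 other genes of the complex or the pathway (under it), with ectopic gcm over pooled wild type in the 8 columns on the left and gcm mutants over OregonR in the 6 on the right; red is higher and blue lower in perturbed embryos, dots mark an adjusted p under 0.05 and colours end at -2 and 2. E(spl)mdelta-HLH, E(spl)m4-BFM and Ocho change from blue at stage 10 to red at stage 13 in the mutants, where BobA reaches 2.95 and Brd 2.05.

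The difference between the experiments was tested over the 6 stages that both held. Gain minus loss of function was -1.20 ± 0.16 (SE) for Dl (adjusted p = 3.32e-07), -0.94 ± 0.25 for E(spl)m5-HLH (adjusted p = 0.00609), -0.70 ± 0.17 for E(spl)malpha-BFM (adjusted p = 0.0018) and -0.76 ± 0.16 for E(spl)mdelta-HLH (adjusted p = 0.000323). E(spl)mbeta-HLH differed in the other direction, at 0.68 ± 0.22 (adjusted p = 0.0215). Thus 4 members were called lower and 1 higher, beside 6.45% of all 13264 probes lower and 11% higher. E(spl)m3-HLH (0.12, 95% interval -0.10 to 0.35) and E(spl)m7-HLH (-0.36, 95% interval -0.93 to 0.21) did not pass. On arrays not centred, the calls of E(spl)malpha-BFM (-0.82) and E(spl)mbeta-HLH (0.55) were lost, with 332 probes lower and 132 higher. The call of E(spl)m5-HLH was lost with arrays scaled to one spread (-0.77, adjusted p = 0.0578). That of E(spl)mbeta-HLH was also lost without loss-of-function stage 10 (0.55) or 13 (0.59). The wild types of the experiments were not the same, and that difference cannot be told apart from the one between the manipulations.

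The complex also holds genes outside the list. In the reference annotation 13 of its genes lie in the order E(spl)mdelta-HLH, E(spl)mgamma-HLH, E(spl)mbeta-HLH, E(spl)malpha-BFM, E(spl)m1, E(spl)m2-BFM, E(spl)m3-HLH, E(spl)m4-BFM, E(spl)m5-HLH, E(spl)m6-BFM, E(spl)m7-HLH, E(spl)m8-HLH and gro, and 13 of the 19 annotated genes of this interval are protein coding. With ectopic gcm, E(spl)mbeta-HLH, E(spl)m2-BFM and E(spl)m3-HLH did not pass although genes on both sides of them were called lower. Of the 4 tested genes outside the list, E(spl)m4-BFM, of the Bearded family, was lower with ectopic gcm (-0.56 ± 0.15 SE, adjusted p = 0.0036), as was E(spl)m1 (-0.35 ± 0.08, adjusted p = 0.00114). E(spl)m2-BFM did not pass (-0.08 ± 0.07).

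The corepressor gene gro, at the end of the complex, went the other way. It was above 0 on 32 of 33 arrays with ectopic gcm, at 0.68 ± 0.09 (SE, adjusted p = 2.25e-08), and on 19 of 25 arrays in the mutants, at 0.28 ± 0.10 (adjusted p = 0.0369). In the mutants E(spl)m4-BFM averaged 0.14 ± 0.18 and was not called, with -1.27 ± 0.39 at stage 10 (adjusted p = 0.0443) and 2.11 ± 0.44 at stage 13 (adjusted p = 0.000813). All 5 arrays of stage 10 lay below 0, from -2.55 to -0.18, and all 4 of stage 13 above 0, from 1.51 to 2.84. E(spl)m1 was lower in both experiments, with -0.38 ± 0.10 in the mutants (adjusted p = 0.00205).

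**Figure D3:**
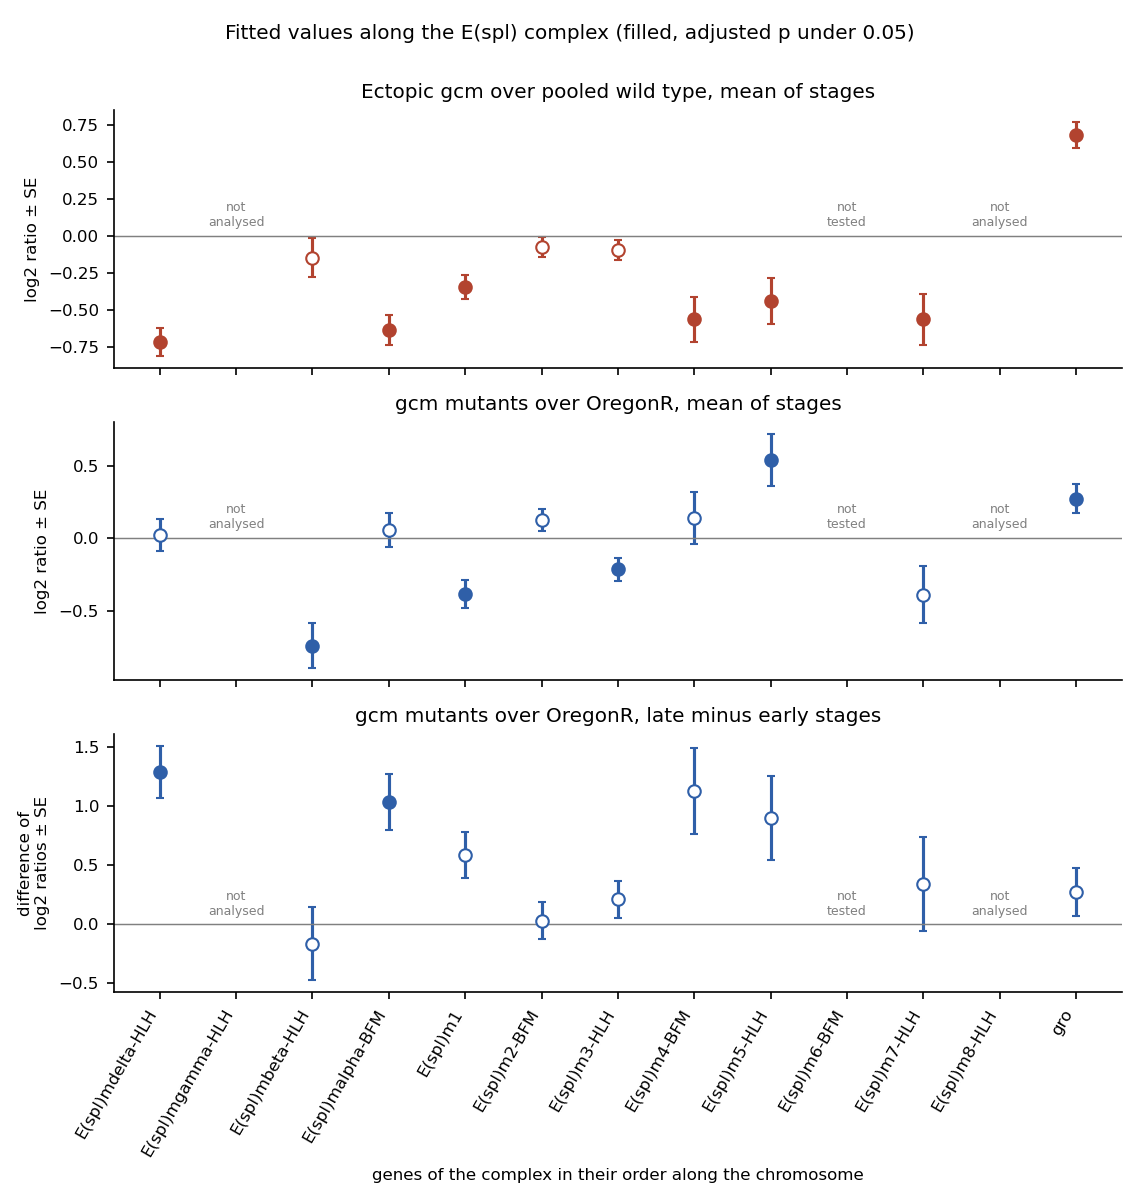
Fitted values of the genes of the complex in their order along the chromosome, as mean log2 ratio with ectopic gcm (top), mean log2 ratio in gcm mutants (middle) and late minus early difference in gcm mutants (bottom); bars are standard errors, filled points passed an adjusted p of 0.05, and vertical axes differ. In the top panel 6 of the 10 tested genes are filled below 0 and gro is filled above 0, while in the bottom panel E(spl)mdelta-HLH and E(spl)malpha-BFM are filled.

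Of the Bearded-family genes outside the complex, 3 of 4 were lower with ectopic gcm: Ocho (-0.68 ± 0.12 SE, adjusted p = 1.27e-05), Tom (-0.55 ± 0.12, adjusted p = 0.000403) and BobA (-0.40 ± 0.15, adjusted p = 0.0372), while Brd was at -0.29 ± 0.13 (adjusted p = 0.0829). Over all probes 13.6% were lower with ectopic gcm and 13.9% higher in the mutants. In the mutants BobA (1.12 ± 0.17, adjusted p = 1.16e-06) and Brd (0.86 ± 0.15, adjusted p = 8.96e-06) were higher, and Ocho and Tom did not pass (0.15 and 0.24). With the maternal mean as a covariate neither BobA nor Brd was called higher in the mutants. BobA lay between 2.14 and 4.21 on the 4 mutant arrays of stage 13, and between 0.20 and 0.70 on the 5 arrays of stage 10. Brd lay between 1.48 and 2.59 at stage 13, against -0.23 to 0.36 at stage 10. Late minus early, Ocho (1.31 ± 0.27), BobA (1.41 ± 0.34) and Brd (0.97 ± 0.29) were called higher in the mutants, beside 3.96% of all probes. The median of the 4 genes was -0.47 with ectopic gcm and 0.55 in the mutants.

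The wider list held 45 other genes of Notch signalling and its targets, chosen with earlier results of these data known, of which 39 had a probe. With ectopic gcm 5 of 37 tested were higher and 14 lower, with a median of -0.22, and in the mutants 9 of 35 were higher and 4 lower, with a median of 0.15. Each count stands beside the shares of all probes given above for these averages. Late minus early, 1 was higher and 1 lower with ectopic gcm, and 8 were higher and 0 lower in the mutants. Over all probes 0.298% were higher and 1.06% lower late with ectopic gcm, and 3.96% higher and 1.60% lower in the mutants. The called ones with ectopic gcm were AP-2alpha (0.90) and H (-0.54). Without stage 13 of the mutants, 5 were higher and 1 lower late, and 4 were higher and 4 lower on average. With the maternal mean as a covariate, 1 was higher and 4 lower with ectopic gcm, and 0 were higher and 1 lower in the mutants. Under it gro, Ocho, Su(dx) and dpn kept their calls with ectopic gcm, and lqf kept its call in the mutants. The values of CtBP, kuz, ac and dx with ectopic gcm, and of H, O-fut1, kuz and sens in the mutants, changed sign under it.

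Among genes that act on the ligand or the receptor, O-fut1, which adds O-fucose to Notch, was higher with ectopic gcm (0.77 ± 0.09 SE, adjusted p = 8.38e-10) and in the mutants (0.41 ± 0.10, adjusted p = 0.00148). The protease gene kuz, whose product cleaves Notch at the cell surface, was also higher in both (0.28 ± 0.06 and 0.34 ± 0.06). With the maternal mean as a covariate O-fut1 and kuz were called higher in neither average. Under it kuz changed sign in both experiments and O-fut1 in the mutants. The epsin gene lqf, needed for endocytosis of Delta, was lower in the mutants (-0.66 ± 0.08, adjusted p = 2.33e-09), and AP-2alpha, a clathrin adaptor subunit, likewise (-0.52 ± 0.11). The ubiquitin ligase gene neur averaged -0.12 and 0.20 in the gain and the loss of function and passed in neither, though it was called higher at stage 13 of the mutants (0.74 ± 0.21, adjusted p = 0.0178). The Notch inhibitor gene numb was lower with ectopic gcm (-0.41 ± 0.07, adjusted p = 1.56e-05), as were Su(dx) (-0.22 ± 0.06) and dx (-0.30 ± 0.11), which act in receptor sorting.

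Of the nuclear factors, H, or Hairless, which links Suppressor of Hairless to corepressors, had the highest average of the list with ectopic gcm. It was above 0 on 31 of 33 arrays, at 0.85 ± 0.07 (SE, adjusted p = 5.5e-14), and was called at every stage from 9 to 14. Its late minus early difference was -0.54 (adjusted p = 0.0286), and in the mutants it averaged 0.37 ± 0.08 (adjusted p = 0.000244). With the maternal mean as a covariate H was called higher in neither average, and its value in the mutants changed sign. The corepressor gene CtBP was higher with ectopic gcm (0.34 ± 0.07) and at 0.05 ± 0.08 in the mutants. Its value with ectopic gcm changed sign under that covariate. The coactivator gene mam was at 0.04 and 0.16 and passed in neither.

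Among relatives and targets of the E(spl) repressors, the neuroblast gene dpn, of the same bHLH subfamily, was lower with ectopic gcm (-0.85 ± 0.09 SE, adjusted p = 6.76e-11) and in the mutants (-0.40 ± 0.10, adjusted p = 0.00181). Another member of that subfamily, Hey, was higher in the mutants (0.18 ± 0.06, adjusted p = 0.0225). The other relatives tested did not pass in either average. Of 9 proneural and partner genes, 5 were lower with ectopic gcm and 0 higher: ase (-0.60 ± 0.13), l(1)sc (-0.43 ± 0.15), ac (-0.43 ± 0.16), the partner da (-0.36 ± 0.09) and the inhibitor emc (-0.24 ± 0.06). Over all probes 13.6% were lower and 14.1% higher in this average. In the mutants 2 of 8 were higher, l(1)sc (0.54 ± 0.17, adjusted p = 0.0152) and sens (0.24 ± 0.07, adjusted p = 0.0127), and late minus early 4 of 8 were higher: ac (1.29), ato (1.23), ase (1.12) and emc (0.77). Over all probes 13.9% were higher in the mutant average and 3.96% higher late.

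**Figure D4:**
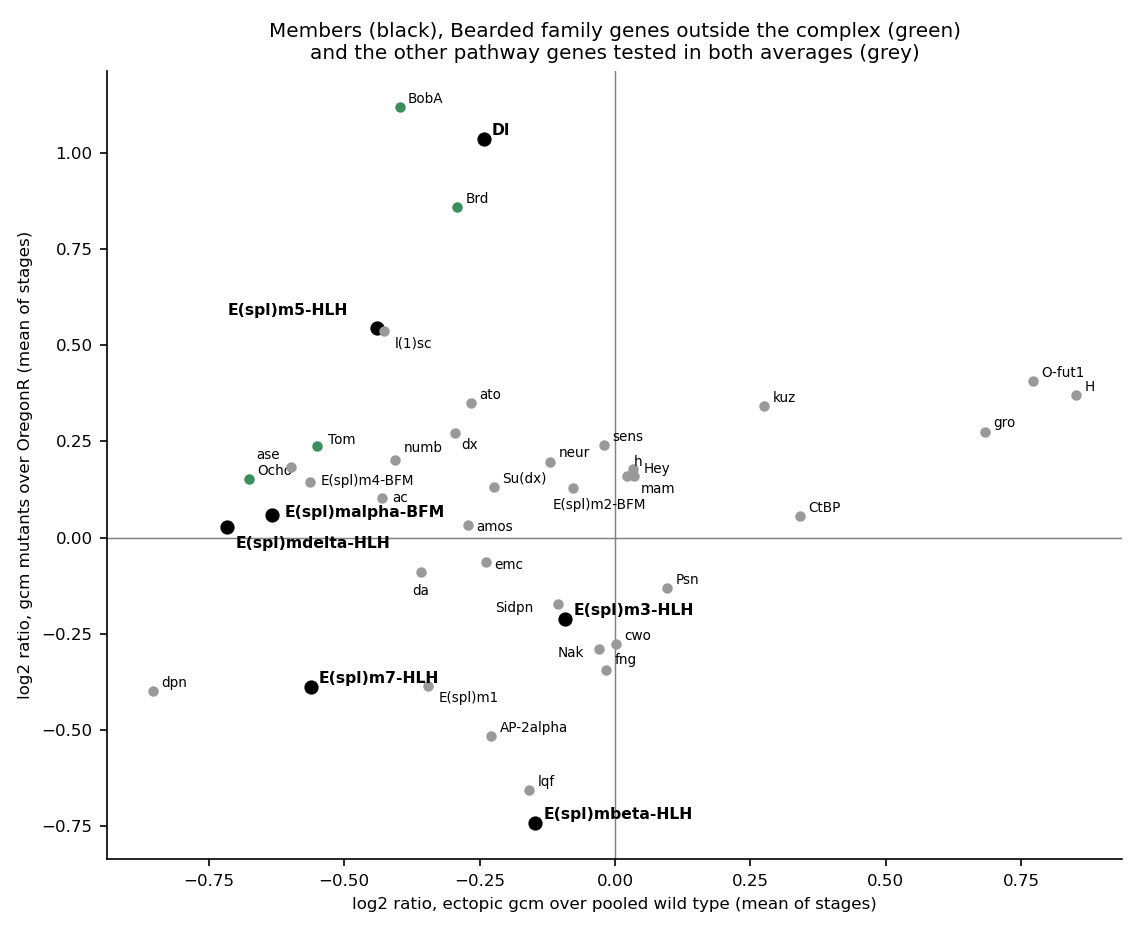
Mean log2 ratio with ectopic gcm over pooled wild type (horizontal) against that in gcm mutants over OregonR (vertical) for the 42 members and pathway genes tested in both; members are black, Bearded-family genes outside the complex green and the other genes grey. Dl, BobA and Brd lie highest, E(spl)mdelta-HLH, E(spl)malpha-BFM, Ocho and dpn lie far left, and H, O-fut1 and gro lie far right.

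The genes whose 14 stage means were most like those of E(spl)mdelta-HLH were found among 8779 probes named for 1 gene and tested at every stage. They were Ocho (Pearson r 0.942), RPA1 (0.932), Ndc1 (0.929), Mapmodulin (0.929) and bib (0.925), the last a neurogenic gene. Of the other members, E(spl)malpha-BFM had an r of 0.817, Dl 0.788, E(spl)m5-HLH 0.71, E(spl)m7-HLH 0.598, E(spl)m3-HLH 0.311 and E(spl)mbeta-HLH -0.12. For Dl, a search chosen after its values were seen gave skd (0.965), CycT (0.963), nito (0.95), ptc (0.941) and hb (0.941). These correlations describe 14 means that share their arrays and wild types, and carry no test.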

How the data were processed

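RNA of perturbed and wild-type embryos was hybridized together on 2-colour spotted arrays, 58 in all. Per the series' design text, the authors scanned them with ScanArray software 3.1, quantified them with GenePix 5.0 and kept arrays whose repeat spots were reproducible. For each spot the authors deposited a log2 ratio, Cy5 over Cy3, its base being inferred from the values. The sources used here do not state background correction or normalization. Without intensities no filter on signal could be set.

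Exact zeros and values of 9 or more in size were taken as missing and repeat spots were averaged per probe. Arrays were then centred by median, and the labelled dyes set the sign, so that positive means higher in perturbed embryos. Of 35 pairs of arrays of a stage with the same orientation, 33 correlated positively before the sign was set, as did 3 of 57 pairs with opposite orientation. Genes were named from the platform annotation, updated through RefSeq, which served only for names, chromosome arms and neighbours.

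Per probe, 1 least squares model was fitted to all 58 arrays with 14 group terms and a dye term per experiment, with variances moderated by limma 3.58.1 in R 4.3.3. A probe was tested where at least 3 arrays and both orientations of each group measured it. P-values are two-sided and adjusted by Benjamini-Hochberg over all tested probes of a comparison. Early stages were 9 to 12 (10 to 12 in the mutants), and late stages 13 to 16. The model was tested on simulated data. Named were all members, any measured gene of the pathway lists, and the 5 genes most like E(spl)mdelta-HLH. The members and lists were chosen with earlier results of these data known. Alternatives changed centring, scaling, missing values, spot and array filters, the dye term, the set of arrays, a replicate block and a maternal covariate. When 1 array was left out, the probes tested in the full data were kept. Figures were drawn with matplotlib 3.10.9.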

Additional observations from a re-analysis of the deposited data

Results flagged for a closer look

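In 5 of 97 sets of 4 or 5 arrays there was a member value far from the rest of its stage, about the 1 in 20 that chance gives. Replicate 2 of gain-of-function stage 15 read 5.163 for E(spl)m7-HLH from 1 spot, against -0.41 to -0.25 on the other arrays. Replicate 4 of gain-of-function stage 16 read 1.917 for E(spl)m5-HLH, also from 1 spot, against -0.81 to -0.42. Replicate 4 of loss-of-function stage 12 read 2.559 for E(spl)m7-HLH, against -0.80 to -0.35. Replicate 3 of loss-of-function stage 10 read -2.755 for E(spl)mbeta-HLH, against -1.35 to -0.87, and replicate 4 of loss-of-function stage 13 read 1.093 for Dl, against 1.84 to 1.90.

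In the mutants E(spl)mdelta-HLH differed by 1.2865 between late and early stages and E(spl)malpha-BFM by 1.0314, tested as a contrast of the limma model. The contrast of gain minus loss of function was called for Dl (-1.202), E(spl)m5-HLH (-0.93509), E(spl)mdelta-HLH (-0.76184), E(spl)malpha-BFM (-0.70212) and E(spl)mbeta-HLH (0.68395).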

How the results depend on the processing

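Pairing by replicate number was looked for in residuals left after the stage and dye terms, which may take up part of it. Over 5937 probes measured on every array, 13 of 112 pairs with the same number in different gain-of-function stages correlated above 0.1 (median -0.02). Of pairs with other numbers, 70 of 364 did so (median 0.00). In the loss of function these counts were 5 of 60 (median -0.02) and 40 of 200 (median 0.01). With the number as a replicate block, 2 members were lower in the gain-of-function average against 4, and in the mutants 1 was higher against 2 and 1 lower against 2. Of the 4 members lower with ectopic gcm, 2 were also left without centring, with stage 9 dropped and under the maternal covariate, which turned E(spl)m5-HLH to 0.058212. Of the 2 members higher in the mutants, 1 was left on arrays scaled to one spread or lacking stage 13, and 0 under the maternal covariate. The filter on repeat spots with an SD under 0.333 also gave 0, but neither of the 2 was tested there: it left 3 members, E(spl)malpha-BFM, E(spl)m3-HLH and E(spl)m7-HLH. Of the 2 members lower in the mutants, 1 was left without centring, on scaled arrays, with exact zeros kept, with each experiment fitted alone, with no filter on missing values and without stage 10, and 0 with the covariate. It was also 1 on probes measured on every array, where E(spl)mbeta-HLH was not tested. The 1 member higher in gain minus loss of function became 0 without centring and without loss-of-function stage 10 or 13. This member, E(spl)mbeta-HLH, was not tested on the repeat-spot filter or on probes measured on every array, so the 0 there says nothing of it. Of the 4 lower, the repeat-spot filter tested 1, which was called.

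Leaving out 1 array at a time gave 3 to 5 members lower with ectopic gcm, and in the mutants 2 to 2 higher and 1 to 2 lower. Late minus early gave 0 to 0 in either direction with ectopic gcm, and 2 to 2 higher and 0 to 0 lower in the mutants. Gain minus loss of function gave 4 to 4 lower and 1 to 1 higher, and the gain-of-function average 0 to 0 higher. The cause of these changes was not tested, beyond the smaller sets of arrays or probes that some settings use. At single stages the precision is limited by 4 or 5 arrays.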
